A study of Bos taurus with 15 samples.

Results

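The absorptive enterocytes of the newborn small intestine were taken from the single-cell libraries of the duodenum, jejunum, and ileum of newborn (NB) Holstein calves as the barcodes that carried many transcripts of RBP2, the cellular retinol-binding protein of the small intestine. A barcode was a member when it had 500 to 4000 detected genes, under 50000 unique molecular identifiers (UMIs, one per captured RNA molecule), at least 1 UMI of the epithelial adhesion gene EPCAM, at least 10 UMIs of RBP2, 0 UMIs of the leukocyte gene PTPRC, and 0 UMIs of the proliferation gene MKI67. The rule gave 2381 members among the 172405 barcodes of the 15 libraries, or among 29155 barcodes within the gene and UMI limits in the small intestinal libraries. The duodenum held 1952 members and the jejunum held 429, so that 82.0% came from the duodenum. The ileum held 0.

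The study compared tissues of NB and adult (AD) cattle, and the 15 libraries used here are 1 for each of 11 NB tissues and 4 tissues of a lactating Holstein cow. All NB small intestinal tissues were stripped of muscle, incubated with EDTA, treated with trypsin, and then digested with a lamina propria enzyme kit, and they carried no treatment or genetic change. The tissue came from 3 calves whose exact age, and which of them gave each library, are not given in the sources used here, so segment, calf, and library cannot be told apart. The cow's jejunum, set beside the members once, was digested with another kit by a protocol that names no EDTA incubation and no trypsin. With 1 library per segment there is no replicate error and no test between segments. Intervals in parentheses are exact 95% intervals (Poisson for UMIs, Clopper-Pearson for shares of barcodes) and cover counting error only.

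Enterocytes are the absorptive cells that line the villi. They carry a brush border of microvilli whose membrane peptidases and disaccharidases finish digestion and whose transporters take up sugars, peptides, and amino acids, while fatty acids and retinol bound to small intracellular proteins are packed with apolipoproteins into chylomicrons. Along the gut, the proximal segments are known for the uptake of fat, iron, and calcium and the ileum for the uptake of bile acids, and cells move from the crypt to the villus tip as they mature. In the newborn calf the same cells meet colostrum and milk.

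Expression levels are given as CPM, in which the summed UMIs of a gene in a group of barcodes are scaled to 1000000 UMIs of that group. Counts from the 3′ end of transcripts are not scaled by gene length. RBP2 chose the members and is therefore described without any test. Of the EPCAM barcodes without PTPRC, 48.5% in the duodenum (46.9 to 50.1, 1952 of 4025) and 28.6% in the jejunum (26.3 to 30.9, 429 of 1501) were members. As a share of all barcodes within the limits, members were 23.0% of 8484 (22.1 to 23.9) and 3.27% of 13105 (2.98 to 3.59). The jejunal library held more barcodes without EPCAM, and the part of the dissociation in these shares was not tested.

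The ileal EPCAM barcodes were almost free of RBP2. Among 674 of them, 93.6% had 0 RBP2 UMIs and the highest count was 5, and the 0 members allow a share of up to 0.445%, taken as 3 counts of the total. The whole ileal library held 284 RBP2 UMIs, against 661025 in the duodenum and 145752 in the jejunum. The ileal barcodes were not shallow, with a median of 9692.5 UMIs. In the 12 other libraries the same limits found 23 barcodes, 17 of them in the AD jejunum.

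**Figure D1:**
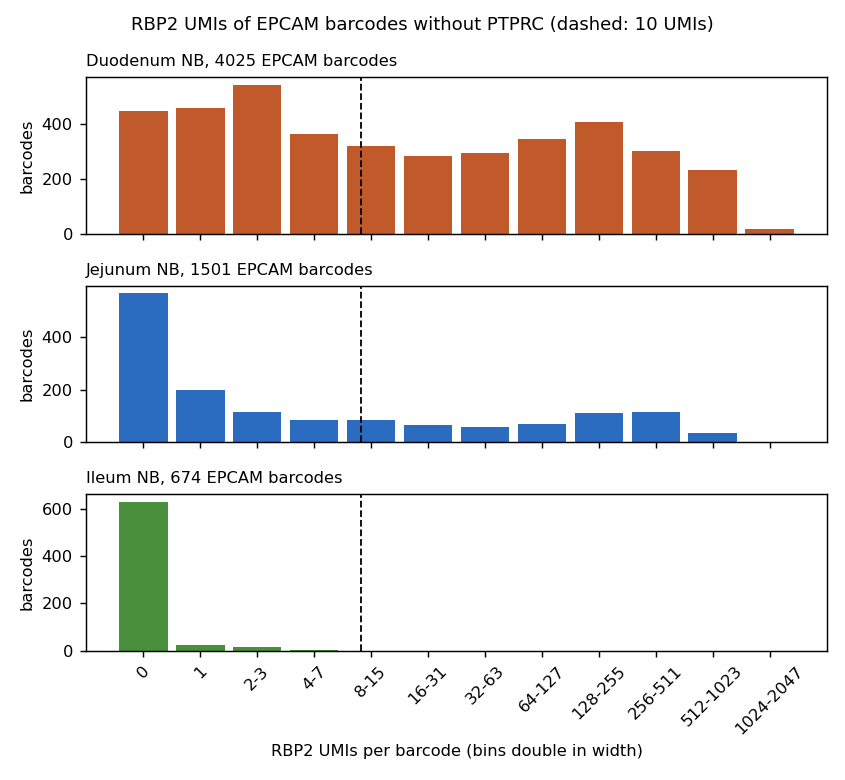
Number of EPCAM barcodes without PTPRC (vertical axis) by RBP2 UMIs per barcode (horizontal axis, bins that widen on a log2 scale) in the NB duodenum, jejunum, and ileum, with a dashed line at 10 UMIs. The duodenum and jejunum hold barcodes up to 1458 and 1085 RBP2 UMIs, and all 674 ileal barcodes lie at 5 or fewer.

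Few members lay near the threshold. At 30 or more RBP2 UMIs were 79.6% of duodenal and 82.3% of jejunal members. In the duodenum, the 145 members at 10 to 14 UMIs held RBP2 at 1615 CPM, APOA1 at 4894 CPM, FABP1 at 5654 CPM, and the goblet gene SPINK4 at 9.22 CPM, while the 295 barcodes just outside, at 5 to 9 UMIs, held 757, 1838, 2809, and 575 CPM. In the jejunum, the 29 members just inside held 1810, 7468, 4851, and 15.5 CPM, and the 60 barcodes just outside 1015, 5056, 1783, and 4.86 CPM. Barcodes on either side of the limit thus graded into each other for the fat-handling genes. A further 135 duodenal and 79 jejunal barcodes passed every limit but that on MKI67, with RBP2 at 7222 and 6012 CPM. They count among the other EPCAM barcodes, the class of all EPCAM barcodes without PTPRC that are not members.

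The members carried the markers of absorptive cells. S100G, the calcium-binding calbindin of the small intestine, stood at 26935 CPM (26873 to 26997) in duodenal and 17498 CPM (17382 to 17615) in jejunal members, and APOA1, the main protein of high-density lipoprotein and a chylomicron component, at 10302 CPM (10264 to 10341) and 43982 CPM (43798 to 44167). Both were found in nearly every member: S100G in 100% of both segments and APOA1 in 99.3% and 98.6%. Among barcodes with PTPRC, which should lack these genes, S100G was at 285 and 35.2 CPM and APOA1 at 135 and 68.3 CPM, read here as the background of free RNA. After thinning each barcode to 1000 UMIs, S100G was still seen in 99.1% of duodenal and 99.3% of jejunal members, against 25.8% and 3.40% of PTPRC barcodes. The median depths were 13918.5 and 11786 UMIs in members and 9865.5 and 10899 UMIs in PTPRC barcodes.

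Most defining genes of other intestinal cells were low in the members, but several lists held genes at 20 CPM or more. Of 6 goblet genes in the files, 3 were at 20 CPM or more. AGR2, a secretory chaperone, stood at 1483 and 999.9 CPM, with a UMI in 88.1% of duodenal and 71.3% of jejunal members against 21.7% and 7.75% of PTPRC barcodes. The goblet peptide TFF3 had a UMI in 8.56% and 4.66% of members. In other EPCAM barcodes AGR2 stood higher, at 3962 and 3199 CPM. All goblet genes at 20 CPM or more in either group were more than 2-fold lower in members, 5 in the duodenum and 4 in the jejunum. Over all genes tested, 14.6% and 13.7% were lower. Of 11 enteroendocrine and 6 tuft cell genes with a row in the files, 0 reached 20 CPM in members of either segment. Of 9 stem and crypt genes, 1 reached 20 CPM in members of a segment, SMOC2, which was more than 2-fold higher in jejunal members. LGR5, a stem cell gene, had 0 UMIs, and OLFM4, a crypt gene, was at 6.47 and 2.01 CPM. At 20 CPM or more were also 3 of 12 cycling, 2 of 15 leukocyte, and 1 of 5 glial genes. Stromal and endothelial genes are given below. The macrophage gene C1QA had at least 1 UMI in 15.8% of duodenal and 39.6% of jejunal members, but 5 or more in 0.666% and 0.466%. The collagen gene COL1A2 had at least 1 UMI in 2.97% and 7.69%, and the T cell gene CD3E in 0.102% and 0%. The intestinal alkaline phosphatase gene ALPI, listed as an enterocyte marker, had 1 UMI in all duodenal and 0 in all jejunal members, and also 0 in the other EPCAM barcodes. No member barcode was shared between libraries, which otherwise shared 32 to 60 barcodes, 0.313% to 0.440% of the smaller library.

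Transcripts of the 13 mitochondrial protein genes, the only ones counted as mitochondrial here, took a median of 15.5% of the UMIs in duodenal and 13.8% in jejunal members. In other EPCAM barcodes of the same libraries the medians were 8.81% and 7.41%. A share of 40% or more, above which the study's own filter removes a barcode, was seen in 202 duodenal (10.3%) and 28 jejunal (6.53%) members. They stay in by the rule. The study does not list the genes behind its share, so its filter may remove other barcodes than these.

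A handful of genes took a large part of the RNA. Besides mitochondrial protein genes and 2 genes listed by identifier alone, the most abundant were FABP1, S100G, RBP2, FABP2, APOC3, and APOA1. FABP1, the liver-type fatty acid-binding protein, stood at 39259 CPM (39183 to 39334) in the duodenum and 25093 CPM (24954 to 25233) in the jejunum, and FABP2, the intestinal form, at 9930.1 CPM (9892 to 9968) and 13039 CPM (12939 to 13139.8). RBP2 itself stood at 15368 CPM (15321 to 15416) and 17894 CPM (17776 to 18012). The 10 most abundant genes of a barcode took a median of 34.5% of its UMIs in the duodenum and 29.6% in the jejunum. The gene listed only as ENSBTAG00000043567, the most abundant of the duodenal members, took 84839.6 CPM in duodenal and 28389.6 CPM in jejunal members, and differed in the same direction between the other EPCAM barcodes (59620 and 19530 CPM).

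Single members differed widely. The share of APOA1 in a member's UMIs had a median of 0.314% in the duodenum, with 80% of members from 0.0409% to 3.37%, and a median of 1.36% in the jejunum, from 0.0431% to 13.9%. FABP1 varied less, from 0.669% to 7.13% around a median of 3.12% in the duodenum and from 0.421% to 4.47% around 1.95% in the jejunum. The ranges of the 2 segments overlapped for each of these genes.

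**Figure D2:**
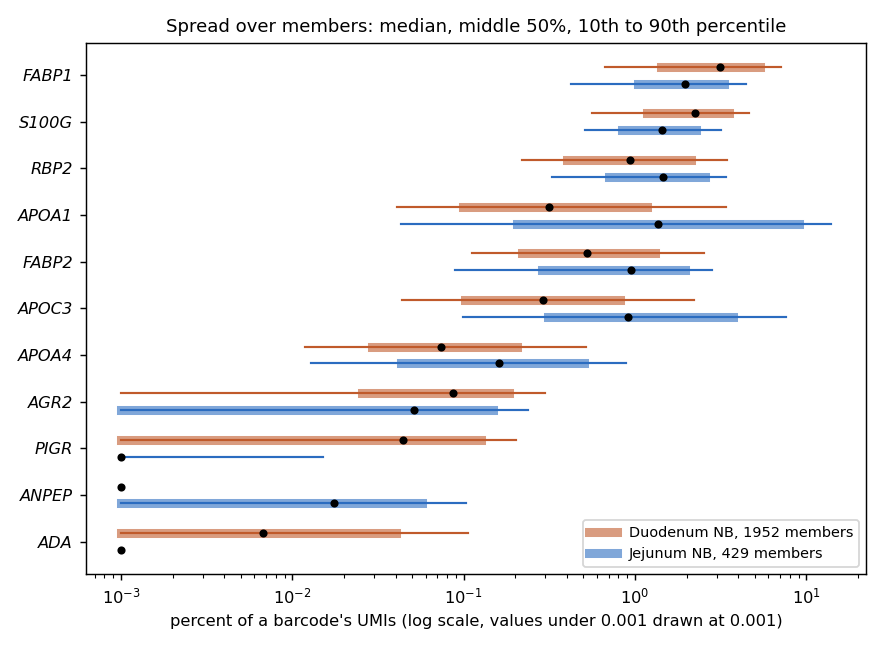
Share of a barcode's UMIs (horizontal axis, log scale) taken by 11 genes in duodenal (orange) and jejunal (blue) members. Black points are medians, thick bars the middle 50%, and thin bars the 10th to 90th percentile of members. APOA1 has a wider range than FABP1, S100G, and RBP2, and ANPEP and ADA stand at 0 in most members of the segment where they are low.

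The first comparison asks how absorptive cells of the duodenum and jejunum differ. Between jejunal and duodenal members, 4482 genes were at 20 CPM or more in one of them. Of these, 236 (5.27%) were more than 2-fold higher and 74 (1.65%) more than 2-fold lower in the jejunum, on the scale of log2(CPM + 5), whose median over the genes was 0.07. On the jejunal side lay 8 brush border peptidases, 6 transporters of peptides and amino acids, 3 apolipoproteins, and 7 MHC and interferon genes. On the duodenal side lay 5 genes of drug metabolism, the purine enzyme ADA, the antibody carrier PIGR, and the keratin KRT19. Markers of other cell types also lay on the jejunal side. All 3 of 11 stromal genes that reached the floor were past 2-fold higher, COL3A1 (14.5 and 119 CPM), COL1A2, and ACTA2, and so were both endothelial genes of 7 at the floor, VWF and EGFL7. Their summed levels were 32 and 244 CPM for the stromal and 41.9 and 127 CPM for the endothelial list. Of the jejunal UMIs of COL3A1, 58.8% lay in 5 barcodes. Among the 1851 duodenal and 380 jejunal members with 0 UMIs of COL1A2, PECAM1, CD3E, and CD79A, 205 genes were higher and 79 lower. RBP2, FABP1, FABP2, S100G, lactase, villin, and the microvillus genes differed by less than 2-fold over all members. In the other EPCAM barcodes FABP1 and S100G were past 2-fold lower in the jejunum, at -1.24 and -1.03 on the log2 scale. The 135 duodenal and 79 jejunal barcodes barred by MKI67 alone lie in that class. They held FABP1 at 21317 and 11301 CPM and S100G at 16081 and 7449 CPM, and their part in the 2 ratios was not tested. Among members with an APOA1 share under 0.3%, S100G (-1.14) and the lactase gene LCT (-1.10) were past 2-fold lower in the jejunum. Among members with under 40% mitochondrial UMIs the counts were 234 and 78, and among the 314 and 61 members with under 10% they were 331 and 161.

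**Figure D3:**
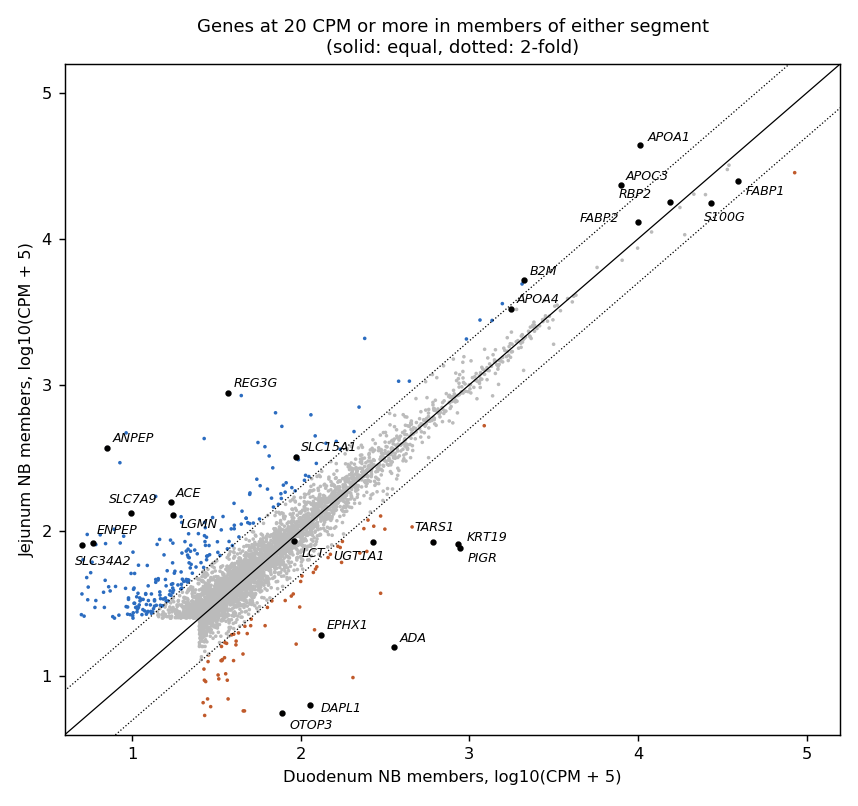
Level of each gene in duodenal (horizontal axis) and jejunal (vertical axis) members as log10(CPM + 5), for the genes at 20 CPM or more in either. Blue and orange points are the 236 and 74 genes past 2-fold, and black points are named genes. ANPEP, ENPEP, SLC7A9, and SLC34A2 lie far above and ADA, DAPL1, and OTOP3 far below the line of equal level.

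Aminopeptidase N, coded by ANPEP, cuts single amino acids from the ends of peptides at the microvillus surface. On the scale of log2(CPM + 5), it had the largest ratio between segments of the genes named here. It stood at 2.10 CPM (1.59 to 2.73) in duodenal members, from 56 UMIs in all, and at 364 CPM (347 to 381) in jejunal members, a log2 ratio of 5.70. At least 1 UMI was found in 2.51% of duodenal and 69.2% of jejunal members. The duodenal level was below that of the library's PTPRC barcodes, which had ANPEP at 15 CPM, with a UMI in 9.69% of them. Jejunal PTPRC barcodes had ANPEP at 11 CPM, with a UMI in 7.22%. In these barcodes free RNA and the leukocytes' own expression cannot be told apart.

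Of 21 brush border hydrolases, 12 were at the floor of 20 CPM, 8 were past 2-fold higher in jejunal members, 1 was past 2-fold lower, and the median log2 ratio was 1.24. Over all genes tested between segments, 5.27% were past 2-fold higher and 1.65% lower. All 8 hydrolases past 2-fold higher are peptidases. ENPEP, which removes acidic residues and cuts angiotensin, was at 0.83 and 77.0 CPM (69.5 to 85.1), MME (neprilysin) at 1.95 and 76.4 CPM (68.9 to 84.5), ACE, the angiotensin-converting enzyme, at 11.9 and 152 CPM (141 to 163), and XPNPEP2, which cuts beside proline, at 4.85 and 45.8 CPM (40.1 to 52.2). Smaller differences were found for DPP4 (23.8 and 63.3 CPM) and the meprin gene MEP1B (38.0 and 85.4 CPM). The hydrolase on the duodenal side was TMPRSS15, the enteropeptidase that activates trypsinogen, at 37.7 CPM (35.4 to 40.1) against 14.9 CPM (11.7 to 18.7).

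The disaccharidases did not share that pattern. LCT, the lactase of milk digestion, was at 86.3 CPM (82.8 to 89.9) in duodenal and 79.8 CPM (72.1 to 88.0) in jejunal members, intervals that overlap. SI, the sucrase-isomaltase, was at 33.6 and 39.2 CPM, MGAM, the maltase, at 11 and 11.1 CPM, and TREH, the trehalase, at 62.4 and 74.0 CPM. The microvillus scaffold differed by less than 2-fold: of 16 brush border structure genes, 14 were at the floor and 0 were past 2-fold. MYO7B came near the limit, with a log2 ratio of 0.91. Villin (VIL1) was at 329 CPM (322 to 336) and 397 CPM (379 to 415).

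Transporters of amino acids and peptides followed the peptidases. Of 22 sugar, peptide, and amino acid transporters, 12 were at the floor, 6 were past 2-fold higher in jejunal members and 0 lower. The shares over all genes tested were 5.27% and 1.65%. SLC7A9, the light chain of the transporter for cystine and basic amino acids, was at 4.81 CPM (4.01 to 5.72) and 126 CPM (117 to 136). SLC15A1, the transporter of di- and tripeptides, was at 88.5 CPM (85 to 92.2) and 317 CPM (301 to 333). Basolateral partners lay the same way, with SLC7A7 at 45 and 176 CPM, SLC7A8 at 0.79 and 55.7 CPM, their heavy chain SLC3A2 at 22.2 and 74.2 CPM, and SLC43A2 at 23.0 and 62.1 CPM. The glucose carriers differed by less than 2-fold, with SLC5A1 at 90.3 CPM (86.7 to 93.9) and 122 CPM (113 to 133) and SLC2A2 at 69.2 and 96.9 CPM.

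Of 24 calcium and mineral genes, which have 25 rows in the files, 13 were at the floor. SLC34A2 and MT2A were past 2-fold higher and SLC30A10 past 2-fold lower in jejunal members, against 5.27% and 1.65% of all genes tested. MT2A, a metallothionein, was at 6.09 and 29.5 CPM, but the log2 ratio of MT2A between segments was -0.0254 without the barcodes of highest doublet score and -0.25 among members with an APOA1 share of 0.3% to 3%. SLC34A2, a sodium-phosphate cotransporter, had 2 UMIs in all duodenal members and 74.8 CPM (67.4 to 82.8) in jejunal members, with a UMI in 47.1% of them and in 0.378% of the jejunal PTPRC barcodes. SLC30A10, a manganese exporter, lay the other way at 40.4 CPM (38.0 to 42.9) and 9.25 CPM (6.77 to 12.3). Over all members, iron carriers differed by less than 2-fold, with the importer SLC11A2 at 108 and 92.1 CPM and the exporter SLC40A1 (ferroportin) at 139 and 72.2 CPM. SLC40A1 was past 2-fold lower in the jejunum in other EPCAM barcodes, at -1.07 on the log2 scale, and among members with an APOA1 share under 0.3%, of 0.3% to 3%, and of 3% or more, at -1.67, -1.83, and -1.35. The calcium channel TRPV6 was at 9.70 CPM (8.55 to 11) in duodenal members and had 0 UMIs in jejunal members (up to 0.741 CPM), and neither level reached the floor.

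Apolipoproteins of chylomicrons were high in both segments, and of these APOC3 and APOA1 were past 2-fold higher in jejunal members. APOC3, which slows the clearance of triglyceride-rich particles, was at 7882 CPM (7848 to 7916) and 23332 CPM (23198 to 23467), and APOA1 had a log2 ratio of 2.09. APOA4 (1769.8 and 3313 CPM), APOB, the structural protein of the particle (355 and 612 CPM), and APOC2 (544 and 1044 CPM) fell short of 2-fold. MTTP, which loads lipid onto APOB, was at 603 CPM (594 to 612) and 721 CPM (698 to 745). Of 12 lipoprotein genes, 11 were at the floor and 3 were past 2-fold higher, against 5.27% of all genes tested. The last of the 3 was APOE (63.2 and 264 CPM), which is abundant in macrophages. APOE was at 10873 and 22376 CPM in the PTPRC barcodes, and its ratio in the other EPCAM barcodes was 1.87 on the log2 scale.

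Of 7 bile acid genes, 4 were at the floor, of which FABP6 and SLC51B were past 2-fold higher in jejunal members and 0 were lower. The shares over all genes tested were 5.27% and 1.65%. FABP6, the ileal bile acid-binding protein, was at 1.77 CPM (1.30 to 2.35) in duodenal and 32.8 CPM (27.9 to 38.2) in jejunal members, and at 284 CPM in the ileal EPCAM barcodes. SLC51B, a subunit of the basolateral bile acid exporter, was at 62.1 CPM (59.1 to 65.1) and 162 CPM (151 to 173), while its partner SLC51A was at 75.5 and 70.1 CPM, and NR0B2, a bile acid-responsive repressor, at 64.9 and 47.0 CPM. The apical importer SLC10A2 had 1 UMI in duodenal members and stood at 6.03 CPM (4.07 to 8.61) in jejunal members, under the floor.

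The MHC and interferon list had 7 genes on the jejunal side, namely B2M, BOLA, BOLA-NC1, and PSMB9 of class I antigen presentation and IFI6, IRF1, and ISG15 of the interferon response. B2M, the light chain of class I molecules and of the neonatal antibody receptor, was at 2112 CPM (2094 to 2129) and 5220.4 CPM (5157 to 5284), and the class I heavy chain listed as BOLA at 1562 CPM (1547 to 1577) and 3589 CPM (3537 to 3642). The log2 ratio of B2M was 1.30 in members, 0.68 in the other EPCAM barcodes, 0.14 in PTPRC barcodes, and 0.99 in COL1A2 barcodes. Of 26 MHC and interferon genes, 14 were at the floor, 7 were past 2-fold higher and 0 lower, against 5.27% and 1.65% of all genes tested. The peptide loading genes TAP1 (33.4 and 51.0 CPM) and TAPBP (114 and 202 CPM) differed by less than 2-fold. The interferon-induced ISG15 was at 14.7 and 65.1 CPM and was higher in the jejunum in the other EPCAM, PTPRC, and COL1A2 barcodes too. FCGRT, the heavy chain of the neonatal antibody receptor, was level at 541 CPM (533 to 550.3) and 562 CPM (541 to 583).

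LGMN, a lysosomal protease, stood apart among the degradative genes at 12.6 CPM (11.2 to 14) and 122 CPM (112 to 132), and DAB2, an endocytic adaptor, was at 2.26 CPM (1.72 to 2.90) and 36.2 CPM (31.1 to 41.9). Of 25 lysosome genes, 19 were at the floor, 2 were past 2-fold higher and 0 lower, against 5.27% and 1.65% of all genes tested. The receptor pair CUBN and AMN, which takes up vitamin B12 with intrinsic factor, differed in opposite directions within 2-fold. CUBN was at 77.8 CPM (74.5 to 81.3) and 42.6 CPM (37.1 to 48.7), and AMN at 332 CPM (325 to 339) and 630.1 CPM (608 to 653).

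On the duodenal side, ADA, which deaminates adenosine, was at 353 CPM (346 to 360.3) in duodenal and 10.9 CPM (8.15 to 14.2) in jejunal members, a log2 ratio of -4.50. A UMI of ADA was found in 54.6% of duodenal and 9.56% of jejunal members. The jejunal level lay below that of the PTPRC barcodes (52.7 CPM, with a UMI in 35.4% of them, against 28.4% in the duodenum). Free RNA and the leukocytes' own expression cannot be told apart there either. PIGR, which carries IgA and IgM across the epithelium, was at 874 CPM (863 to 885) and 71.1 CPM (63.9 to 79.0), and KRT19, a keratin of simple epithelia, at 846 CPM (835 to 857) and 75.4 CPM (67.9 to 83.4). The threonyl-tRNA synthetase TARS1 was at 602 CPM (593 to 611) and 78.6 CPM (71.0 to 86.8).

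Drug metabolism genes leaned to the duodenum. Of 33 detoxification genes, 18 were at the floor, 0 were past 2-fold higher in jejunal members and 5 lower, with a median log2 ratio of -0.30. Over all genes tested, 5.27% were higher and 1.65% lower. The bilirubin-conjugating UGT1A1 was at 265 CPM (259 to 271) and 78.0 CPM (70.4 to 86.1), UGT2B10 at 241 CPM (236 to 247) and 66.9 CPM (59.9 to 74.5), and the cytochrome CYP2C87 at 88.9 CPM (85.3 to 92.5) and 11.7 CPM (8.85 to 15.1). EPHX1, the microsomal epoxide hydrolase, was at 127 and 14.3 CPM. Genes whose UMIs an aligner can split between close copies, such as the UGT and CYP families, are uncertain.

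Also among the 10 genes furthest to the duodenal side were DAPL1 (109 and 1.41 CPM), the proton channel gene OTOP3 (72.2 and 0.60 CPM), and the complement gene C5 (116 and 15.9 CPM). Of 42 epithelial transcription factors, 15 were at the floor, PRDM1 was past 2-fold higher and ONECUT2 and PPARG past 2-fold lower in jejunal members. Over all genes tested, 5.27% were higher and 1.65% lower. ONECUT2 was at 27.6 CPM (25.7 to 29.7) and 4.62 CPM (2.93 to 6.94), and PPARG at 21.4 and 1.61 CPM. PDX1, the duodenal homeobox gene, was at 6.62 CPM (5.67 to 7.67) and had 1 UMI in jejunal members, under the floor in both. HNF4G (294 and 345 CPM), GATA4 (78.9 and 61.1 CPM), and CDX2 (70.3 and 95.1 CPM) differed by less than 2-fold.

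Of the 10 genes with the highest ratios on the jejunal side, 5 rested on very few barcodes. REG3G, an antibacterial lectin, had 4359 UMIs in the jejunal members, of which a single barcode held 3161 and 5 barcodes 95.2%. Without the 5 barcodes its level fell from 876 to 42.7 CPM, against 32.0 CPM in the duodenum. The lysozyme gene LYSB (96.4% of UMIs in 5 barcodes), the pentraxin gene MPTX (93.4%), a row of the phospholipase gene PLA2G2A (92.1%), and the chemokine gene CCL11 (90.6%) had the same form. By comparison, 5 barcodes held 9.22% of the jejunal UMIs of ANPEP, 9.66% of ENPEP, 10.7% of SLC7A9, 9.95% of SLC34A2, and 7.67% of EPB41L3, a membrane skeleton gene at 0.41 and 89.0 CPM. Of the 236 genes higher in jejunal members, 27 had 50% or more of their jejunal UMIs in 5 barcodes. When each gene was taken without its 5 top jejunal barcodes, with all duodenal members kept, 164 stayed past 2-fold. On the duodenal side, 72 of 74 did without their 5 top duodenal barcodes. As 5 barcodes are a larger part of 429 than of 1952 members, the 2 counts are not alike. When the barcodes with the highest doublet scores were left out, among them 108 duodenal and 76 jejunal members, 194 genes were past 2-fold higher and 78 lower.

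Barcodes with PTPRC had no EPCAM, and those with COL1A2, which mark stroma, had neither EPCAM nor PTPRC. The same ratio was taken in the other barcodes of both libraries to see whether a difference was found beyond the members. The other EPCAM barcodes are not wholly apart from the members, since 135 duodenal and 79 jejunal ones failed the rule by MKI67 alone. Of the 236 genes, 170 were at the floor in the other EPCAM barcodes, and 60 (35.3%) were past 2-fold higher in the jejunum there, against 1.99% of all genes tested there. In PTPRC barcodes it was 42 of 143 (29.4%, against 2.03%), and in COL1A2 barcodes 26 of 159 (16.4%, against 1.40%). Of the 74 duodenal genes, 26 of 50 were past 2-fold the same way in the other EPCAM barcodes (52.0%, against 1.62%), 0 of 20 in PTPRC barcodes, and 6 of 24 in COL1A2 barcodes (25%, against 1.14%). For 150 and 46 genes no difference past 2-fold was found in any of the other kinds of barcode, which includes genes that were under the floor there and could not be compared. Against 5.27% of all genes tested, 12 of 22 immediate early and stress genes were past 2-fold higher in jejunal members. Of these, 9 were past 2-fold in the other EPCAM barcodes, 0 in PTPRC barcodes, and 6 in COL1A2 barcodes. EGR1 had 1.83 in members and -0.17 in PTPRC barcodes, and HSPH1, a heat shock protein, had log2 ratios of 2.04 in members, 1.53 in other EPCAM barcodes, 0.62 in PTPRC barcodes, and 1.34 in COL1A2 barcodes. PIGR had -3.53 in members, -1.91 in other EPCAM barcodes, and -2.29 in COL1A2 barcodes, and was under the floor in PTPRC barcodes. ADA had -4.50 in members and -0.23, 0.34, and -0.17 in the other EPCAM, PTPRC, and COL1A2 barcodes. ANPEP had 5.70 in members and 2.63 in other EPCAM barcodes, and was under the floor in the rest. ENPEP was under the floor in other EPCAM and PTPRC barcodes, and in COL1A2 barcodes it lay the other way, at 209 CPM in the duodenum and 79.4 CPM in the jejunum. Past 2-fold in the opposite direction were 3, 1, and 7 of the jejunal genes in the other EPCAM, PTPRC, and COL1A2 barcodes, and 0, 2, and 0 of the duodenal genes.

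The members of a segment were not uniform, and APOA1 spread more widely than the other abundant genes. Members were therefore ordered by their share of APOA1 and divided into 3 groups of near-equal size within each library, a grouping made after the data had been seen. The lower, middle, and upper groups held 651, 651, and 650 duodenal and 143 jejunal members each. The median APOA1 share was 0.0660%, 0.315%, and 2.00% in the duodenum and 0.102%, 1.36%, and 11.9% in the jejunum. Levels of APOA1 itself are fixed by this ordering.

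Of 12 lipoprotein genes, 8 of 11 at the floor were past 2-fold higher in the upper duodenal group, against 5.02% of all genes tested, and 7 of 11 in the upper jejunal group, against 9.41%. APOA1, whose share set the groups, is among the 8 and the 7. One was lower in each, APOE in the duodenum (102 to 28.9 CPM) and PLIN2, a lipid droplet protein, in the jejunum (109 to 18.8 CPM). Over all duodenal members, 5 barcodes held 52.9% of the APOE UMIs, and without them its level went from 63.2 to 29.8 CPM. Of 22 genes of fatty acid and cholesterol uptake, 8 of 12 and 8 of 13 were higher, while FABP3 was lower in both segments and FABP6 in the jejunum (37.6 to 3.24 CPM). APOC3 went from 1272 to 20300 CPM between the lower and upper groups of the duodenum and from 2330.4 to 58831 CPM in the jejunum, APOA4 from 286 to 4563 and from 395 to 8018 CPM, and APOB from 36.7 to 895 and from 64.6 to 1339 CPM. FABP2 went from 2463 to 22142 and from 2333 to 23536 CPM. RBP2, although it chose the members, still spread from 5038 to 29825 and from 6787 to 27745 CPM. FABP1 and S100G moved less, FABP1 from 21684 to 56298 CPM in the duodenum but only from 17702 to 21850.5 CPM in the jejunum, where the middle group was highest at 36406 CPM.

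Of 3 goblet genes at the floor in the duodenum, TFF3 (11.3 to 42.3 CPM) and SPINK4 (6.48 to 36.8 CPM) were past 2-fold higher in the upper group, each with at least 50% of its duodenal UMIs in 2 barcodes. The lower group was higher in AGR2 (2023 against 560.5 CPM in the duodenum, 1703 against 92.8 CPM in the jejunum), in PIGR (1571 against 184 CPM in the duodenum, 179 CPM against 0 UMIs in the jejunum), in KRT19 (1347 against 281 and 146 against 13.6 CPM), and in CLU (161 against 24.4 and 339.8 against 22.1 CPM). Ribosomal protein genes took 18.9% of the UMIs in the lower and 6.29% in the upper duodenal group, and 20.9% and 4.73% in the jejunum. KRT20, a keratin of surface cells, did not follow the order in the same way: it was at 968 and 1345 CPM in the duodenum and at 1310 and 884 CPM in the jejunum. Median detected genes fell from 3144 to 2271 in the duodenum and from 2767 to 2285 in the jejunum, and the median mitochondrial share went from 12.2% to 19% and from 12.5% to 14.9%. The part of depth and mitochondrial share in these differences was not tested.

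Across genes at the floor in both libraries, 155 of 4226 (3.67%) were past 2-fold higher in the upper group of both segments and 399 (9.44%) past 2-fold lower. In the duodenum alone 10.6% of genes were lower, and in the jejunum alone 19.6%. The median log2 ratio over all genes tested was -0.29 in the duodenum and -0.24 in the jejunum. Of 21 brush border hydrolases, 6 of 8 at the floor were past 2-fold higher in the upper duodenal group, against 5.02% of all genes. In the upper jejunal group it was 13 of 14, against 9.41%. ANPEP went from 59.1 to 750.1 CPM in the jejunum and was at 2.47 and 2.34 CPM (1.41 to 3.65) in the duodenum. ADA did the reverse, from 76.3 to 754 CPM in the duodenum and from 22.1 to 2.60 CPM in the jejunum. CUBN went from 25.6 to 157 CPM in the duodenum and from 4.42 to 97.3 CPM in the jejunum. ANPEP and ADA were thus further apart between segments in the upper than in the lower groups.

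As a description over cells of 1 library each, which share depth and free RNA, the share of APOA1 had Spearman's rho of 0.81 with APOC3, 0.87 with APOA4, 0.67 with RBP2, -0.59 with AGR2, and -0.74 with PIGR in 1952 duodenal members. In 429 jejunal members rho was 0.95, 0.90, 0.71, -0.80, and -0.52. With FABP1 it was 0.40 and 0.05.

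**Figure D4:**
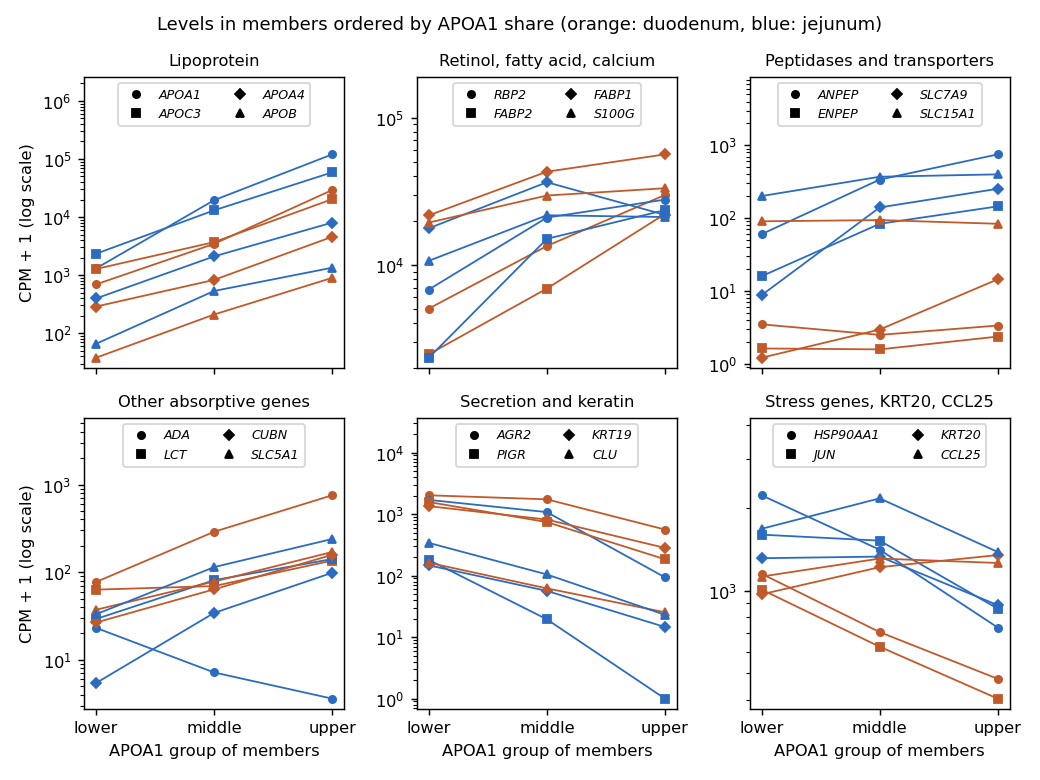
CPM + 1 (vertical axes, log scale) of 24 genes in the lower, middle, and upper APOA1 groups of duodenal (orange) and jejunal (blue) members. Lipoprotein genes climb and AGR2, PIGR, KRT19, and CLU descend in both segments, while ANPEP, ENPEP, and SLC7A9 reach higher levels in the jejunum and ADA climbs in the duodenum.

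A larger share of jejunal members lay at the high end of APOA1. A share of 3% or more was found in 186 jejunal members (43.4%) and 225 duodenal members (11.5%), and a share under 0.3% in 126 (29.4%) and 946 (48.5%). When segments were compared within the 3 ranges under 0.3%, 0.3% to 3%, and 3% or more, the ratios of the chylomicron genes APOA4, APOB, and APOC3 were all under 2-fold, whereas APOE, at 1.98 over all members, stayed past 2-fold at 1.43, 2.42, and 2.75. The log2 ratio of APOA4 was 0.90 over all members and -0.26, -0.30, and -0.47 within the ranges, that of APOB 0.78 and -0.38, -0.37, and -0.26, and that of APOC3 1.57 and 0.18, -0.04, and 0.37. APOC2, at 0.93 over all members, was past 2-fold at 1.05 in the low range and at 0.00 and -0.47 in the others. APOA1, which sets the ranges, had -0.19, -0.01, and 0.66. APOC3 and APOA4 followed the APOA1 share, with rho of 0.81 and 0.87 in duodenal and 0.95 and 0.90 in jejunal members. Ranges of that share bring such genes closer by construction, so their smaller ratios are no separate result. CUBN turned further to the duodenum, from -0.80 to -2.28, -1.91, and -1.18.

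Most other segment differences kept their direction in each range. ANPEP had 5.70 over all members and 2.74, 5.28, and 6.25 within the ranges, ENPEP 3.81 and 1.40, 3.60, and 4.42, B2M 1.30 and 1.24, 1.13, and 0.97, and ADA -4.50 and -1.93, -5.76, and -6.28. Of the 236 genes higher in jejunal members, 218 had the same sign in all 3 ranges and 87 were past 2-fold in each. Of the 74 lower genes, 72 and 35 did.

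The second comparison sets members beside the other EPCAM barcodes without PTPRC in their own library, 2073 in the duodenum and 1072 in the jejunum, and beside the 674 of the ileum. As the members were chosen by RBP2 and MKI67 among the same barcodes, these values describe the choice and carry no test. The other barcodes keep the 135 duodenal and 79 jejunal ones barred by MKI67 alone. Those held APOA1 at 3035 and 10149 CPM, against 820 and 1375 CPM over all other EPCAM barcodes. The other barcodes were shallower, with median UMIs of 7384 and 9087.5. In both libraries 4810 genes were at the floor, of which 267 (5.55%) were past 2-fold higher and 550 (11.4%) past 2-fold lower in members of both. The median log2 ratio was -0.26 in the duodenum and -0.10 in the jejunum, and the totals of the members include very abundant genes. With ratios centred on the median, 415 genes were higher and 457 lower, and with totals that leave out mitochondrial genes and genes above 1% of UMIs, 619 were higher and 445 lower and the medians moved to 0.06 and 0.28.

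The 10 genes furthest on the members' side were mostly of fat and retinol handling. They were APOA1, APOC3, APOA4, APOB, APOC2, FABP1, FABP2, and RBP2, with SLC13A2, the carrier of citrate and succinate (263 and 414 CPM in members, 21.2 and 17.8 CPM in the others), and C29H11orf86 (157 and 225, 11.8 and 8.74 CPM). CUBN was at 77.8 and 42.6 CPM in members and at 7.08 and 1.62 CPM in the others. CREB3L3, a factor of lipid genes, was at 142 and 227 CPM against 19.3 and 18.6 CPM, and CCL25, the chemokine that draws lymphocytes to the small intestine, at 1225 and 1743 CPM against 255 and 216 CPM. Of 16 brush border structure genes, 7 of 14 at the floor were past 2-fold higher in duodenal members, against 6.26% of all genes tested, and 12 of 14 in jejunal members, against 11.2%.

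The 10 genes furthest on the other side are known from secretory, hormone, and crypt cells. REG3G was at 10662 and 35979 CPM in the other EPCAM barcodes, MPTX at 15608 and 39269 CPM, the goblet peptide TFF3 at 2068 and 1364 CPM against 24.8 and 20.3 CPM in members, the hormone gene MLN (motilin) at 692 and 377 CPM against 6.13 and 0.60 CPM, and the crypt gene OLFM4 at 893 and 705 CPM against 6.47 and 2.01 CPM. The others were SPINK4, GHRL, LYSB, and both rows of PLA2G2A. Of 12 cycling genes, 10 were at the floor in the duodenum and 11 in the jejunum. All of these were past 2-fold lower in members, against 14.6% and 13.7% of all genes. MKI67 is not among the 12, but the rule bars it from members. The 489 duodenal and 277 jejunal EPCAM barcodes with MKI67 all lie in the other group, so these counts describe the choice. FCGRT differed little, at 541 and 562 CPM in members and 517 and 486 CPM in the others.

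**Figure D5:**
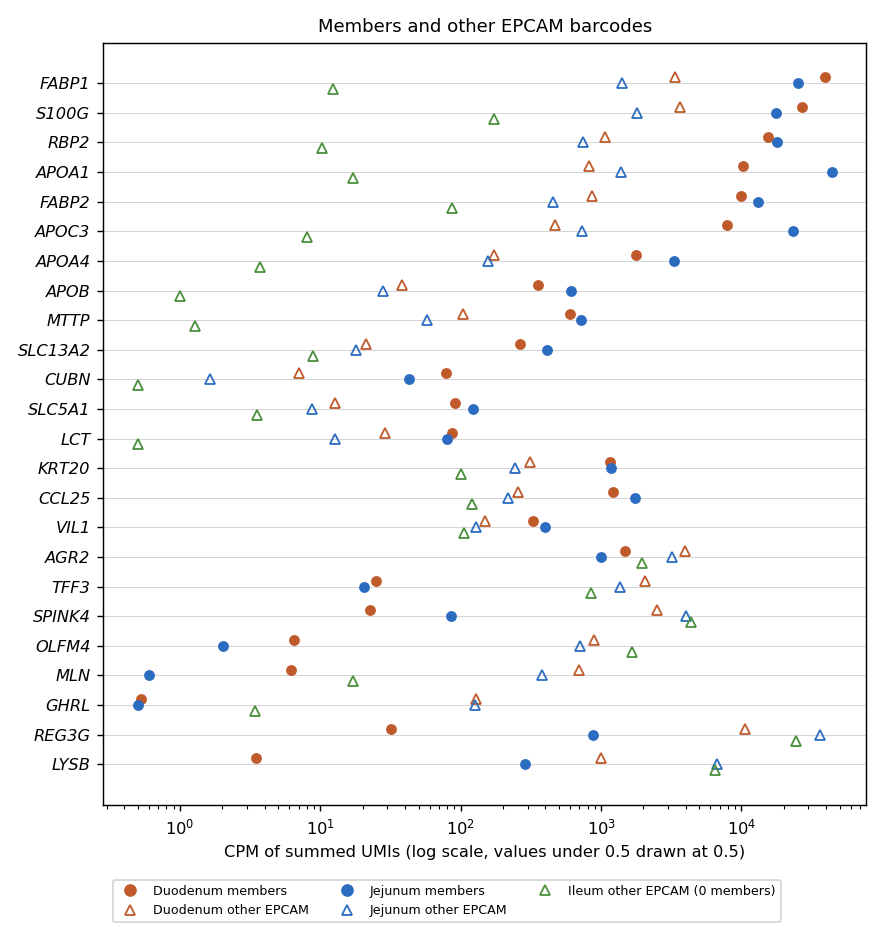
CPM (horizontal axis, log scale) of 24 genes in members (filled circles) and other EPCAM barcodes (open triangles) of the NB duodenum (orange), jejunum (blue), and ileum (green, 0 members). Absorptive genes lie to the right in members of both segments, secretory and crypt genes lie to the left, and the ileal barcodes are lowest for FABP1, RBP2, APOA1, and APOC3.

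The ileal EPCAM barcodes shared few of the absorptive genes. RBP2 was at 10.2 CPM (7.99 to 12.9) there, FABP1 at 12.3 CPM (9.89 to 15.2), APOA1 at 17.2 CPM (14.2 to 20.5), FABP2 at 86.5 CPM (79.8 to 93.7), and S100G at 172 CPM (163 to 182), each below the other EPCAM barcodes of the duodenum and jejunum. GATA4, a factor of the proximal intestine, had 0 UMIs in the ileum against 49.2 and 28.4 CPM, while the posterior factors HOXA9 (139 CPM) and HOXB9 (57.6 CPM) were under 2 CPM in both other segments. Without MKI67, 34 of 458 ileal barcodes (7.42%, 5.2 to 10.2) had 10 or more UMIs of FABP6, a rule added after the data had been seen, against 1 of 3536 in the duodenum and 3 of 1224 in the jejunum. Those 34 held FABP6 at 2533 CPM, S100G at 787 CPM, FABP2 at 387 CPM, and RBP2 at 63.8 CPM. They also held the guanylin gene GUCA2A at 2632 CPM and OLFM4 at 1396 CPM, against 110 and 616 CPM of GUCA2A in the members of the duodenum and jejunum. How many absorptive cells the ileal library held cannot be read from the RBP2 rule.

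Beside the NB jejunum, the 17 barcodes of the AD jejunum that met the same limits held 3406 CPM (3207 to 3615) of ANPEP, 20881 CPM (20383 to 21389) of FABP2, and 8105 CPM (7796 to 8424) of FABP1, against 364, 13039, and 25093 CPM in NB members. RBP2 was at 1590.4 CPM, APOA1 at 344 CPM, and S100G at 316 CPM, each below the NB members. These sums rest on few barcodes: 4 of the 17 (23.5%) had 30 or more RBP2 UMIs, and the median barcode had 0.0046% of its UMIs in APOA1 and 0.0058% in S100G. LCT had 0 UMIs in the 17 barcodes (0 to 11.5 CPM) and PIGR was at 4789.9 CPM. Stage, animal, and dissociation changed together between these libraries and cannot be told apart.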

How the data were processed

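Single-cell RNA libraries were made with 10x 3′ v3 chemistry, 1 for each of 11 NB and 4 AD tissues. The authors aligned the reads and deposited UMI counts per gene and barcode, and the submitters' processing notes name Cell Ranger 3.1.0. The study removed barcodes above 40% mitochondrial UMIs and doublets, and neither step was applied here. Library totals ran from 17707625 to 129458578 UMIs, and from 70858711 to 117505536 in the NB small intestine. Members had 26603647 UMIs in the duodenum and 4975522 in the jejunum.

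Counts were summed over members and divided by all their UMIs (CPM). Ratios were log2 of CPM + 5 for genes at 20 CPM or more in either group, called past 2-fold, with no test since each group is 1 library. The planned ileal comparisons could not be computed with 0 members. The files hold 27270 genes, 7540 of them without a symbol. Of 542 gene symbols in 32 lists, 19 had no row. Genes were named from these lists, the 15 most abundant, and the 10 furthest each way among genes at 50 CPM or more. The members and lists were chosen with earlier results of these data known. On simulated counts, 200 of 200 genes changed 4-fold and 0 of 3865 unchanged genes were past 2-fold between segments. These counts held counting error only, without UMIs gathered in few barcodes, so they check the arithmetic and not the calls. Alternatives were a mitochondrial limit, other RBP2 limits, doublet scores (scanpy 1.11.5), pseudocounts, floors, scalings, and thinning to 1000 UMIs. Python 3.11.15, NumPy 2.4.6, SciPy 1.17.1, and pandas 2.3.3 were used. Results for some genes are not reported here.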

Additional observations from a re-analysis of the deposited data

Results flagged for a closer look

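Between members and other EPCAM barcodes, 2 genes were past 2-fold in opposite directions in the duodenum and jejunum. The count covers genes with a symbol and leaves out mitochondrial and ribosomal protein genes. Smaller opposite shifts are not in it. ADA, the adenosine deaminase, was higher in duodenal members (353 against 64.8 CPM, log2 ratio 2.36) and lower in jejunal members (10.9 against 54.4 CPM, -1.91). SELENOP, the selenium carrier protein, was lower in duodenal members (65.8 against 234 CPM, -1.76) and higher in jejunal members (637 against 256 CPM, 1.30). With 1 library per segment the difference was not tested.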

How the results depend on the processing

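No paired analysis was possible because each group is 1 library, and for the same reason no replicate could be left out. Counting error was small for abundant genes, but the spread between calves is unknown, and genes under 20 CPM in both groups were not called. Over the log2 ratios of 195 named genes between segments, 16 other settings gave 3105 values. Of these, 2398 stayed within their counting interval and 703 moved past it. A further 4, of genes past 2-fold between segments, changed sign or fell to 0. The counts of genes are not among these values and moved as given below. A limit of 10% mitochondrial UMIs left 314 duodenal and 61 jejunal members. The ileum had 1 member at 5 or more RBP2 UMIs, 1 with the thinned RBP2 limit, and 1 without the upper gene limit, and 34, 9, or 28 when FABP6, FABP2, or S100G took the place of RBP2. The count of genes higher in jejunal members, 236 as reported, was 135 with a pseudocount of 20 CPM, 129 with a floor of 50 CPM, 370 with no floor, and 373 after thinning. The count of lower genes, 74 as reported, was 161 under 10% mitochondrial UMIs, 36 with the pseudocount, 40 with the higher floor, 128 with totals without mitochondrial and very abundant genes, 127 after thinning, and 115 in the high APOA1 range. Against other EPCAM barcodes, the count of 267 higher genes became 403 under 10% mitochondrial UMIs, 163 with the pseudocount, 415 when centred, and 619 with the other totals, and the count of 550 lower genes became 312, 268 with the higher floor, and 906 with no floor. Without doublets, the log2 ratio of MT2A between segments turned to -0.0254 and that of SPINK4 to -0.55, while SMOC2 turned under 10% mitochondrial UMIs (-0.0195) and COL1A2 stood at 0 where its barcodes were left out by construction. In alternatives chosen after seeing the data, the named genes past 2-fold whose ratio changed sign were APOA1 (-0.19), SCARB1 (-0.40), and SLC28A1 (-0.17) in the low APOA1 range, APOA1 (-0.0113), APOC3 (-0.0414), IFI6 (-0.08), and MT2A (-0.25) in the middle range, and VWF (-0.23) in the high range. Over all called genes, 18 of the 236 and 2 of the 74 changed sign in some range. The cause was not tested.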

Other observations

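Sugar and amino acid metabolism set members apart from the other EPCAM barcodes in both segments. Of 21 urea, ketone, and gluconeogenic genes, 7 of 14 at 20 CPM or more were past 2-fold higher in duodenal and 6 of 15 in jejunal members, against 6.26% and 11.2% of all genes tested. KHK, the fructokinase, was at 98.8 and 67.1 CPM in members against 41.7 and 15.1 CPM in the others, and ASS1, an enzyme of the urea cycle, at 245 and 255 CPM against 70.5 and 68.7 CPM. Between segments KHK and ASS1 differed by less than 2-fold.

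Of 16 retinoid genes, 6 were at 20 CPM or more in each segment, and besides RBP2, which chose the members, RDH16 and ALDH1A1 were past 2-fold higher in members of both. RBP4, the retinol carrier of plasma, was past 2-fold lower in duodenal members (5.83 against 61.9 CPM). RDH16, a retinol dehydrogenase, was at 218 and 149 CPM in members against 26.7 and 9.91 CPM in the others, and ALDH1A1, which makes retinoic acid, at 203 and 195 CPM against 90.9 and 85.7 CPM. BCO1, which splits carotene, was at 0.10 CPM in the lower and 32.7 CPM in the upper APOA1 group of the duodenum, and had 0 UMIs in the lower and 14.3 CPM in the upper group of the jejunum. Cholesterol synthesis genes were mostly level between segments, with 1 of 14 past 2-fold higher in jejunal members, against 5.27% of all genes tested. It was INSIG1, at 28.8 and 96.1 CPM. CDH17, the intestinal cadherin, was at 405 and 391 CPM in members against 97.7 and 39.6 CPM in the others, whereas KRT18 was at 19.8 and 38.2 CPM against 221 and 238 CPM.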
